A study of Bos taurus with 24 samples.

Results

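The ATP-binding cassette (ABC) genes were read out in single bovine early blastocysts. They were taken as every row of the count table whose symbol is ABC, a letter from A to G and a digit, which gave 43 of the 24621 rows. They fell into subfamilies A (11 rows), B (9), C (10), D (4), E (1), F (3) and G (5), and all 43 had at least 1 count. RNA of 24 individual embryos was sequenced, each embryo being 1 replicate. The 8 in vivo derived embryos (5 male, 3 female; label A) were flushed from superovulated Holstein cows on day 7 after insemination. The 8 embryos of the serum group (3 male, 5 female; label B) came from slaughterhouse oocytes matured with 20% fetal bovine serum and then cultured in synthetic oviduct fluid with 5% of that serum. The 8 embryos of the serum-free group (5 male, 3 female; label C) came from such oocytes matured with epidermal growth factor and cultured in the same fluid with bovine serum albumin, insulin, transferrin and selenium.

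All embryos had the same sire, a Holstein bull, so that the groups represent a single paternal genome. The in vivo embryos came from 3 cows and the cultured ones from 3 in vitro experiments, and the labels do not give the cow, the experiment or the sequencing lane of an embryo. Donor and experiment therefore cannot be told apart from the groups. In vivo embryos also differed from cultured ones in the source of their oocytes. Cultured embryos were not all collected on the same day after insemination, and the day of each is not known here. The comparisons with in vivo embryos are therefore of the whole production route and not of the culture medium alone. Each embryo was lysed whole, and fewer cells of a type and less RNA per cell cannot be told apart in these values.

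ABC proteins bind and hydrolyse ATP in a pair of conserved nucleotide-binding domains. Most of them span a membrane and use that energy to move lipids, porphyrins, conjugated metabolites, drugs or fatty acyl chains across it, at the cell surface or in mitochondria, peroxisomes and lysosomes. Members of subfamilies E and F have the ATP-binding domains but no membrane span, and work on ribosomes. In embryos and placenta the multidrug pumps are known as part of the barrier against foreign compounds, and the sterol transporters as part of lipid supply.

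The exon counts per embryo lay between 3253051 and 9000447, the highest being serum embryo B5. Replicates of a group differed by more than counting noise, with a chi-square per degree of freedom between 15.1 and 147 for pairs of embryos. Of the 8 trophectoderm markers listed, those of the outer epithelium of the blastocyst, the summed level was 7620 to 14860 CPM (counts scaled to a common library size) in vivo, 295 to 5190 CPM in the serum group and 4980 to 27467 CPM in the serum-free group. 5 of the 6 markers tested (GATA2, GATA3, IFNT, KRT18, KRT8) were called lower in the serum group than in each other group. Of all genes 13.8% were called against in vivo embryos and 8.91% against the serum-free group. GATA2, GATA3 and IFNT entered both tests through the other group alone, their lowest serum embryos being at 1.52, 0.656 and 0 CPM. None was called between the serum-free and in vivo groups, beside 2.2% of all genes. The remaining marker tested, TFAP2C, was not called, with means of 206 CPM in vivo, 255 CPM with serum and 214 CPM without it. KRT8 made up most of the sum, with means of 9058, 1107 and 8798 CPM in the same order. CDX2, a defining factor of the trophectoderm, reached at most 11 counts in any embryo. The 5 inner cell mass markers summed to 572 to 839 CPM in vivo, 486 to 1015 CPM in the serum group and 485 to 778 CPM in the serum-free group. DPPA3 was the largest part, with means of 450, 425 and 399 CPM. Of 4 tested for serum over in vivo, SOX2 was called, higher at 19.9 against 8.39 CPM, beside 13.8% of all genes. No other call was made in this list. NANOG had means of 12.4, 62.0 and 45.5 CPM, and POU5F1 of 216, 149 and 169 CPM. The 8 oocyte markers summed to 5.30 to 15.5 CPM, 5.49 to 159 CPM and 19.7 to 111 CPM in the same order, and the 8 listed blood and stroma markers to 21.7 to 47.7 CPM, 9.89 to 114 CPM and 17.2 to 54.4 CPM. OOEP, the 1 oocyte marker tested, was called higher in both culture groups than in vivo, with means of 3.05, 12.2 and 15.2 CPM. It entered the test through the culture groups alone, the lowest in vivo embryo being at 0.726 CPM. The 9 listed cumulus and granulosa markers stayed at or below 50.9 CPM in all. Serum embryo B2 had the lowest trophectoderm sum and the highest oocyte, cumulus and stroma sums of its group. Results on ABC genes in the serum group are therefore also given without B2 and B5 where that changed a call. Calls of marker and partner genes were not examined in this way.

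Following the study's limit, a gene entered a comparison once 15 or more counts were seen in all embryos of 1 group or of both. It was called with a Benjamini-Hochberg adjusted p-value under 0.05 over all genes tested and a change of at least 2-fold, by edgeR's quasi-likelihood test. 15 of the 43 ABC genes were tested in the comparisons of all embryos (2 of subfamily A, 4 of B, 2 of C, 2 of D, 1 of E, 3 of F and 1 of G), and 11 of them passed the count limit in all 3 groups. Levels are CPM after TMM normalization over the 24 embryos and log2 fold changes are given with approximate standard errors. The counts are not divided by transcript length, so levels are compared between embryos and never between genes.

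Between the serum group and in vivo embryos 4 of the 15 ABC genes were called, beside 13.8% of the 7339 genes tested. ABCB1 was higher, and ABCB6, ABCB8 and ABCA1 were lower in the serum group. In the same comparison 6.43% of all genes were called higher and 7.34% lower. Between the serum-free group and in vivo embryos 1 of 15 was called, ABCB1, beside 2.2% of 7314 genes. Between the 2 culture groups 1 of 14 was called, ABCB8, beside 8.91% of 7181 genes. The comparisons with in vivo embryos share those 8 embryos, so their values are set side by side and not correlated. The median log2 fold change of the ABC genes tested was −0.47 for serum over in vivo (0.01 over all genes), 0.02 for serum-free over in vivo (0.00 over all genes) and −0.39 for serum over serum-free (0.02 over all genes). In the first comparison ABCA1, ABCA5 and ABCG2 passed the count limit through the in vivo group alone, and 12 genes passed it in both groups. In the second, ABCA5 and ABCC1 passed it through the in vivo group alone, and 13 genes passed it in both groups. In the last, ABCA1 and ABCG2 passed it through the serum-free group alone and ABCC1 through the serum group alone. The count limit can itself shift each of these medians, which are not read as a change of the family.

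**Figure D1:**
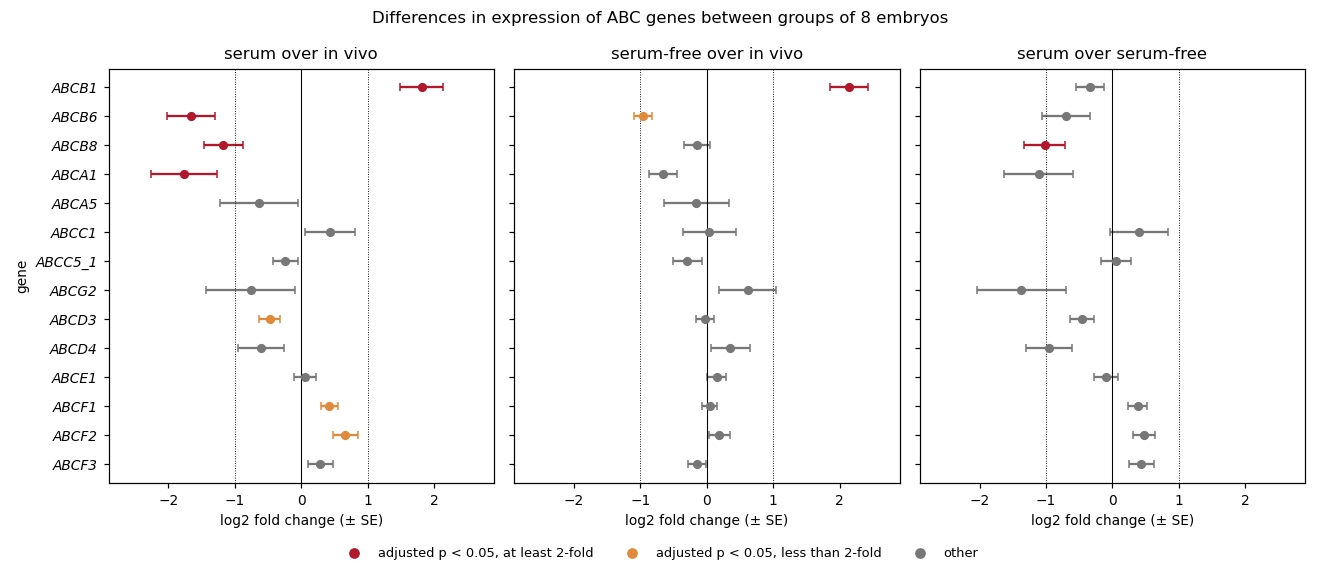
Log2 fold change of 14 of the tested ABC genes with its standard error (horizontal axis, one gene per line) for serum over in vivo, serum-free over in vivo and serum over serum-free embryos, 8 embryos per group. Dotted lines mark a 2-fold change, and colours mark the adjusted p-value and the fold limit. ABCB1 lies right of the 2-fold line against in vivo embryos in both media, at 1.81 and 2.14, whereas ABCB6, ABCB8 and ABCA1 lie left of it in the serum group.

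ABCB1 encodes P-glycoprotein, a pump of the plasma membrane that exports a broad range of lipophilic drugs and toxins. Its level in vivo was 9.23 CPM in the lowest embryo, 44.4 CPM at the median and 80.1 CPM in the highest. In the serum group the lowest, median and highest levels were 114, 150.1 and 319 CPM, and in the serum-free group they were 157, 177 and 303 CPM. All 16 cultured embryos were thus above all 8 in vivo embryos, and the culture groups overlapped each other. Complete separation from in vivo embryos in this direction was seen for 3.16% of all genes tested in the serum group and for 0.52% in the serum-free group. The means ± SD were 47.9 ± 22.7 CPM in vivo, 169 ± 68.2 CPM with serum and 208 ± 60.1 CPM without it (n = 8 each).

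ABCB1 was 3.51-fold higher in the serum group (log2 1.81 ± 0.32, adjusted p = 0.000632) and 4.41-fold higher in the serum-free group (log2 2.14 ± 0.29, adjusted p = 0.000566) than in vivo. The 95% intervals of these log2 values were 1.19 to 2.43 and 1.57 to 2.71. The difference between the culture groups did not pass the test (serum over serum-free −0.34 ± 0.22, interval −0.76 to 0.09, adjusted p = 0.283). The gene was well covered, with 46 to 331 counts per embryo in vivo, 406 to 2643 with serum and 640 to 1680 without it. ABCB1 was called in the serum-free group, where no trophectoderm marker was called, and in the serum group, where 5 were. Whether the share of trophectoderm bears on the level of ABCB1 in either group was not tested. Its neighbour in the RefSeq annotation of ARS-UCD2.0, ABCB4, a phosphatidylcholine translocator and its closest relative, had at most 12 counts in any embryo and was not tested.

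ABCB1 thereby took a different part of the family's reads. It gave 3.56 ± 1.78% of all ABC counts in vivo, 11.8 ± 2.73% in the serum group and 14.6 ± 3.67% in the serum-free group, while the family as a whole gave 0.133%, 0.141% and 0.142% of all exon counts. Summed over the 43 genes, the level was 1364 ± 99.0 CPM in vivo, 1391 ± 223 CPM with serum and 1416 ± 137 CPM without it. Without ABCB1 the sums were 1317 ± 108, 1222 ± 160 and 1209 ± 113 CPM. These sums are not corrected for transcript length and no test was made on them.

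**Figure D2:**
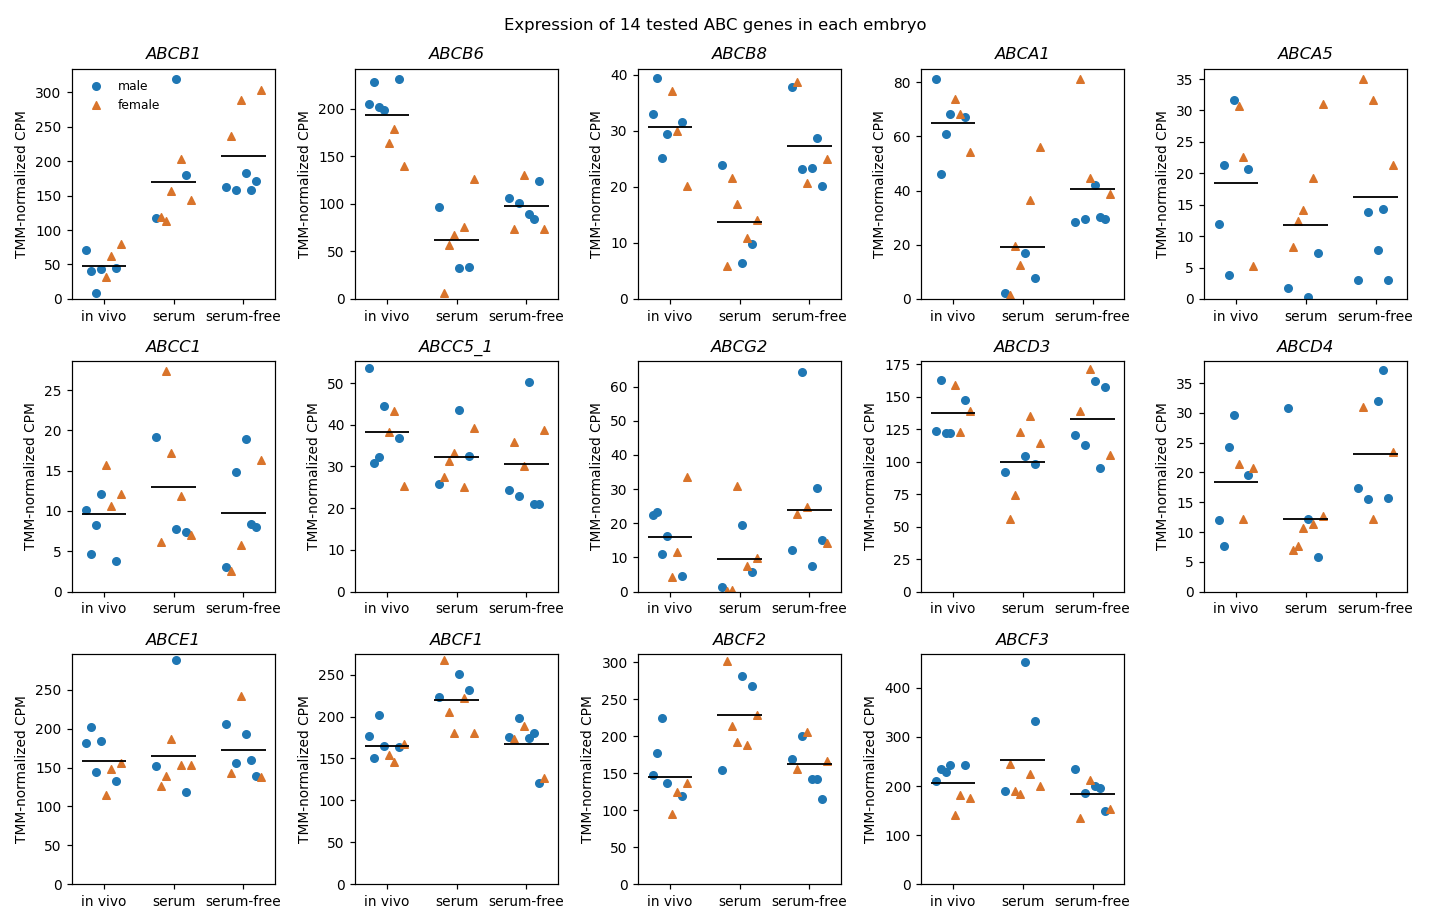
Level of 14 of the 15 tested ABC genes in every embryo (vertical axes, TMM-normalized CPM, each from 0) by group (horizontal axes). Points are single embryos, circles male and triangles female, and the bars are group means. All cultured embryos lie above all in vivo embryos for ABCB1 and below them for ABCB6, while the groups overlap for the other 12 genes.

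The other plasma membrane exporters of drugs and conjugates that could be tested were ABCC1, ABCC5 and ABCG2. ABCC1 exports glutathione conjugates, ABCC5 exports nucleotide analogues and ABCG2 is the breast cancer resistance protein, a pump of drugs, porphyrins and urate. None of them passed the test in any of these comparisons. ABCC1 was at 9.66 ± 3.98 CPM in vivo, 13 ± 7.62 CPM with serum and 9.73 ± 6.2 CPM without it. The row of ABCC5 that was tested, the first of 2 rows of that name, was at 38.1 ± 8.92, 32.3 ± 6.47 and 30.5 ± 10.5 CPM, and the second row had at most 10 counts. ABCG2 varied most, from 4.28 to 33.4 CPM in vivo, from 0.219 to 30.9 CPM with serum and from 7.5 to 64.2 CPM without it. Its log2 fold change was −0.76 ± 0.67 for serum over in vivo (interval −2.07 to 0.56, adjusted p = 0.41) and 0.62 ± 0.43 for serum-free over in vivo (interval −0.23 to 1.46, adjusted p = 0.442). The first of these intervals holds levels 2-fold lower as well as unchanged, and the second levels 2-fold higher. In the RefSeq annotation, ABCC1 overlaps ABCC6 and ABCG2 overlaps an uncharacterized gene. The libraries kept no strand, so reads from overlapping genes could not be separated.

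Of 29 genes written down for xenobiotic response and conjugation, 25 were in the table and 12 were tested against in vivo embryos in the serum group. GSTM3, a glutathione S-transferase, rose from 0.375 ± 0.706 CPM in vivo to 59.1 ± 99.0 CPM in the serum group (log2 7.33 ± 1.01, adjusted p = 0.000122). It had 0 to 9 counts per embryo in vivo and 31 to 1375 with serum, so that it passed the count limit through the serum group alone and the size of the fold rests on levels near 0. YBX1, an RNA- and DNA-binding protein, passed the p-value but not the fold limit (0.57 ± 0.19). None of the 11 tested was called in the serum-free group. There the members with the highest counts were YBX1, with a log2 fold change of 0.17 ± 0.14, and GSTP1, another glutathione S-transferase, with 0.53 ± 0.15 (adjusted p = 0.553 and 0.0417). Between the culture groups GSTM3 was higher (3.67 ± 0.80), again having passed the limit through the serum group alone, and GSTP1 was lower (−1.06 ± 0.29) with serum.

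The B subfamily also holds transporters of mitochondria and of heme precursors. ABCB6 carries porphyrins, and ABCB8 and ABCB10 lie in the inner mitochondrial membrane and are linked to iron and heme handling. In vivo, ABCB6 was at 139.6 CPM in the lowest embryo, 200.1 CPM at the median and 231 CPM in the highest. In the serum group these levels were 5.91, 61.8 and 126 CPM, and in the serum-free group 73.5, 95 and 130.0 CPM. All 16 cultured embryos were below all in vivo embryos, which is the opposite order to ABCB1. Complete separation downwards was seen for 3.84% of all genes with serum and for 0.451% without it. The serum embryos were spread far more widely than the others, from 27 counts in B2 to 688 in B8.

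ABCB6 was 3.16-fold lower in the serum group than in vivo (log2 −1.66 ± 0.36, adjusted p = 0.0028), with means ± SD of 61.7 ± 38.5 and 193 ± 31.1 CPM. Without serum, at 97.5 ± 21.4 CPM, it was 1.95-fold lower (log2 −0.96 ± 0.14, adjusted p = 0.000715), which passed the p-value but not the 2-fold limit. With 1 fit over all 24 embryos, which share 1 estimate of the spread, the latter adjusted p was 0.121 at a log2 value of −0.96. The difference between the culture groups did not pass the test (−0.70 ± 0.37, interval −1.42 to 0.02, adjusted p = 0.188). In the serum group, embryo B2, lowest in ABCB6, was also lowest in the sum of trophectoderm markers, and B8, highest in ABCB6, was highest in that sum. No trophectoderm marker was called without serum, and ABCB6 was below all in vivo embryos there too. Whether the share of trophectoderm bears on the lower level in either culture group was not tested.

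**Figure D3:**
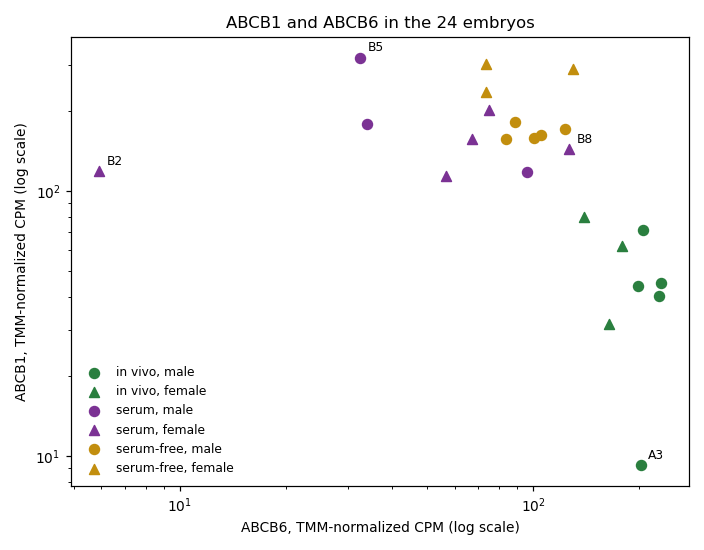
Level of ABCB6 (horizontal axis) and of ABCB1 (vertical axis) in each of the 24 embryos, in TMM-normalized CPM on log scales. Colours mark the groups, circles male and triangles female embryos. In vivo embryos lie at the lower right, between 139.6 and 231 CPM of ABCB6 and up to 80.1 CPM of ABCB1, and no cultured embryo falls within those limits. Embryo B2 is apart at 5.91 CPM of ABCB6 but has a level of ABCB1 like the rest of its group.

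ABCB8 had lowest, median and highest levels of 20.1, 30.7 and 39.4 CPM in vivo, 5.91, 12.5 and 23.8 CPM with serum and 20.2, 24.1 and 38.7 CPM without it. The serum group was low, though its 2 highest embryos, B1 and B3, lay within the range of the other groups. ABCB8 was 2.25-fold lower with serum than in vivo (log2 −1.17 ± 0.29, adjusted p = 0.0063) and 2.03-fold lower than in the serum-free group (log2 −1.02 ± 0.31, adjusted p = 0.0308). The serum-free group was at −0.15 ± 0.20 against in vivo embryos (interval −0.54 to 0.24, adjusted p = 0.719). Both calls lay close to the fold limit. Without B2 and B5 the first was −0.90 (adjusted p = 0.0136) and the second −0.76 (adjusted p = 0.08), and neither was called. The call between the culture groups was also lost when any of the embryos C1, C6, C10, B2, B5, B6 or B7 was left out, with log2 values of −0.99 to −0.88. ABCB10 had at most 30 counts in any embryo and was not tested.

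Of the 31 heme and iron-sulfur genes written down as partners of these transporters, 30 were in the table and 22 were tested. In the serum group 1 was called higher and 3 lower than in vivo, 4 of 22 beside 13.8% of all genes. The enzymes FECH, ferrochelatase, and UROD, uroporphyrinogen decarboxylase, fell, the former from 17.5 ± 7.18 to 3.16 ± 3.44 CPM (log2 −2.46 ± 0.70, adjusted p = 0.0143) and the latter from 158 ± 14.6 to 75.8 ± 34.9 CPM (log2 −1.07 ± 0.24, adjusted p = 0.00385). FECH had 33 to 158 counts per embryo in vivo and 0 to 51 with serum, and passed the count limit through the in vivo group alone. TMEM14C, a mitochondrial carrier of a porphyrin precursor, fell from 273 ± 39.1 to 135 ± 56.4 CPM (−1.03 ± 0.22). TFRC, the transferrin receptor that brings iron into cells, rose from 259 ± 41.8 to 573 ± 468 CPM (1.13 ± 0.31). It had 778 to 1472 counts per embryo in vivo and 699 to 14033 with serum, where the median was 2373. Whether this call depends on the highest serum embryo was not tested. The other 18 were not called, and the median over the 22 genes was −0.03. Without serum none was called, and ALAS1, BOLA3 and ISCA2 passed the p-value with log2 increases of 0.53, 0.55 and 0.64. The members with the highest counts there were TFRC (0.59 ± 0.18, adjusted p = 0.0572) and TMEM14C (−0.17 ± 0.13, adjusted p = 0.497). Between the culture groups FECH (−2.37 ± 0.73), which passed the limit only in the serum-free group, and ACO1, a cytosolic aconitase that is also an iron sensor (−1.15 ± 0.28), were lower with serum.

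Among the lipid transporters, ABCA1 was called. It loads cholesterol and phospholipid from the plasma membrane onto apolipoproteins. Its lowest, median and highest levels were 46.0, 67.7 and 81.1 CPM in vivo, 1.31, 14.9 and 56.2 CPM with serum and 28.2, 34.4 and 81.0 CPM without it. In the serum group only B8, also the embryo with the highest trophectoderm sum there, reached the in vivo range, and B2, which had the lowest sum, had 6 counts. Without serum only C10 reached it, the other 7 embryos lying at or below 44.6 CPM. Whether the share of trophectoderm bears on the level of ABCA1 was not tested.

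ABCA1 was 3.40-fold lower with serum than in vivo (log2 −1.77 ± 0.50, adjusted p = 0.0131), at 19.2 ± 18.7 against 65 ± 11 CPM. It passed the count limit through the in vivo group alone, and was not tested when both groups had to pass it. Without serum, at 40.5 ± 17.6 CPM, the log2 difference was −0.66 ± 0.21 (interval −1.08 to −0.24, adjusted p = 0.0718), and without C10 it was −0.89 (adjusted p = 0.00541). It also passed the p-value, under the fold limit, by edgeR's exact test (adjusted p = 0.0451) and by DESeq2 (0.0352). The same held for the quasi-likelihood test with sex as covariate (0.035) or with the replicate numbers as a block (0.0292). Over all alternatives the adjusted p ran from 0.00541 to 0.527. The culture groups differed by −1.11 ± 0.52 (adjusted p = 0.144), and by −1.57 (adjusted p = 0.0375) without B8. ABCA5, a second tested member of this subfamily, had overlapping levels of 3.81 to 31.7 CPM in vivo, 0.362 to 31.1 CPM with serum and 2.99 to 34.9 CPM without it, and did not pass the test against in vivo embryos in either medium (adjusted p = 0.435 and 0.892). It overlaps an uncharacterized gene in the RefSeq annotation.

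Of 21 cholesterol efflux genes written down, ABCA1 and ABCG1 among them, 20 were in the table and 10 were tested against in vivo embryos. Besides ABCA1 none was called with serum, and NR1H2, a liver X receptor that senses oxysterols, passed the p-value and was lower with serum, at 53.2 ± 18.9 against 85.1 ± 13 CPM (log2 −0.68 ± 0.20, adjusted p = 0.0174). None was called in the serum-free group. The members with the highest counts there were SOAT1, which esterifies cholesterol (0.04 ± 0.10, adjusted p = 0.86), and LPCAT3, a phospholipid-remodelling acyltransferase, which passed the p-value (0.65 ± 0.17, adjusted p = 0.0295). Of 8 genes tested between the culture groups none was called, SOAT1 being at 0.11 ± 0.15 and LPCAT3 at −0.08 ± 0.25.

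Subfamily D carries substrates into peroxisomes, except for ABCD4, which is needed for the release of cobalamin from lysosomes. ABCD3, a peroxisomal transporter of branched-chain and other acyl chains, was at 137 ± 17.4 CPM in vivo, 99.6 ± 25.7 CPM with serum and 133 ± 28.6 CPM without it. In vivo embryos ranged from 122 to 163 CPM and serum embryos from 56.2 to 136 CPM, with 2 embryos of the serum group, B4 and B6, in the in vivo range. ABCD3 was 1.39-fold lower with serum (log2 −0.47 ± 0.16, adjusted p = 0.0298), under the fold limit, and its adjusted p lay between 0.0516 and 0.0798 when any of A1, A2, A6, A7, A8, B1, B2, B3, B5 or B7 was left out. Without serum it was at −0.02 ± 0.13 (interval −0.29 to 0.24, adjusted p = 0.947). ABCD4 was at 18.4 ± 7.30, 12.3 ± 7.90 and 23.0 ± 9.26 CPM and did not pass the test in any comparison of all embryos, the closest being serum over serum-free (−0.95 ± 0.34, adjusted p = 0.0625). Without B1, the embryo highest in ABCD4 in the serum group, that value was −1.27 (adjusted p = 0.0122) and the one of serum over in vivo −0.91 (adjusted p = 0.0304). ABCD2, a peroxisomal transporter of very long chain fatty acids, reached at most 44 counts.

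13 of 18 peroxisomal oxidation genes were tested. With serum 2 were called beside 13.8% of all genes, both lower than in vivo: SCP2, a peroxisomal thiolase and sterol carrier, with 163 ± 71.1 against 368 ± 82.6 CPM (log2 −1.19 ± 0.23, adjusted p = 0.00131), and ACBD5, an acyl-CoA-binding protein of the peroxisomal membrane, with 18.1 ± 4.17 against 39.3 ± 7.85 CPM (−1.11 ± 0.21, adjusted p = 0.00114). Without serum none was called, ACBD5 passed the p-value at −0.82 ± 0.19, and SCP2 and PEX19, the members with the highest counts, were at 0.27 ± 0.23 and 0.36 ± 0.12 (adjusted p = 0.553 and 0.0895). SCP2 was also lower with serum than in the serum-free group (−1.46 ± 0.30). Of 13 cobalamin genes, 9 were tested against in vivo embryos. MUT, the mitochondrial methylmalonyl-CoA mutase that needs cobalamin, fell with serum from 90.6 ± 37.7 to 45.2 ± 16.7 CPM (−1.01 ± 0.25, adjusted p = 0.007). CD320, the receptor for cobalamin bound to its carrier, and MTR, methionine synthase, passed the p-value with increases of 0.70 ± 0.16 and 0.96 ± 0.34. None was called in the serum-free group, where the members with the highest counts, LMBRD1 and MMADHC, were at −0.34 ± 0.13 and 0.25 ± 0.17, or between the culture groups, where they were at −0.86 ± 0.46 and −0.16 ± 0.21.

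**Figure D4:**
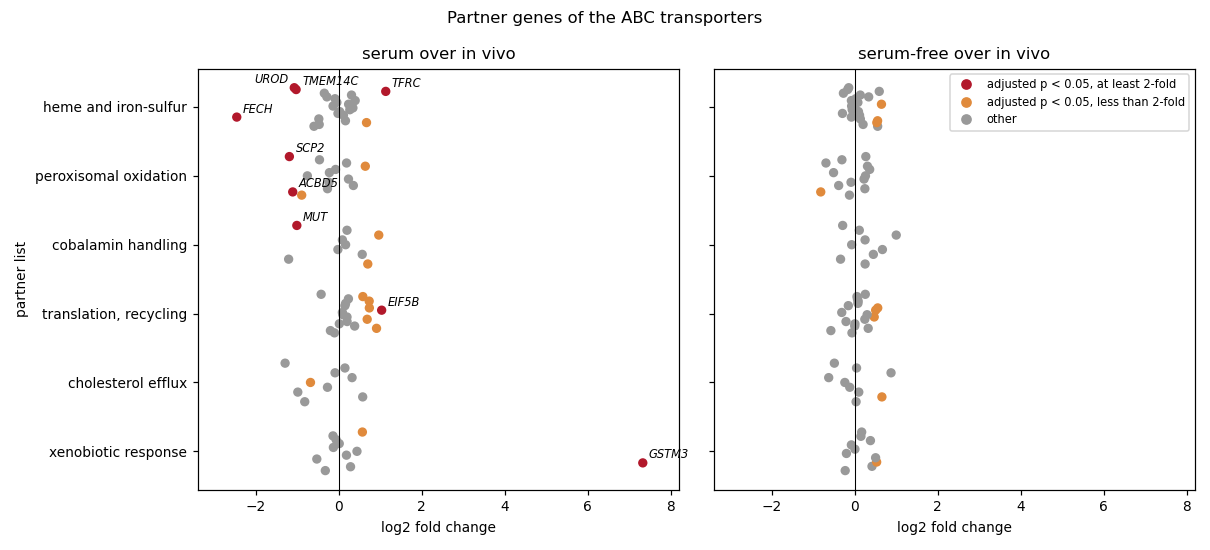
Log2 fold change of the tested genes of the 6 partner lists (horizontal axis) for serum over in vivo and serum-free over in vivo embryos, with one point per gene. Points are spread vertically within a list only to keep them apart, ABCA1 is left out of the cholesterol list and 1 gene of the xenobiotic list is not shown, and colours mark the adjusted p-value and the fold limit. Genes called at 2-fold are named, 9 in the serum group, and there is none in the serum-free group.

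The E and F members are not transporters. ABCE1 splits ribosomes after termination so that they can be used again, ABCF1 acts with initiation factor 2, and ABCF2 and ABCF3 are related soluble proteins. ABCF2 had lowest, median and highest levels of 94.7, 136 and 224 CPM in vivo and 154, 221 and 301 CPM with serum, and ABCF1 of 145, 164 and 202 CPM and 179.9, 223 and 268 CPM. Both were higher with serum, by 1.59-fold for ABCF2 (log2 0.67 ± 0.18, adjusted p = 0.0118) and by 1.34-fold for ABCF1 (log2 0.42 ± 0.13, adjusted p = 0.0197), and thus under the 2-fold limit. For ABCF1 the adjusted p was 0.0616 when genes with 1 count in any embryo were kept. Past the p-value without the fold limit were 3 ABC genes in the higher direction, beside 14.8% of all genes, and 4 in the lower direction, beside 13.4%. B2, which was lowest in 6 of the 15 tested genes within the serum group, was the highest in both ABCF1 and ABCF2. Without serum, ABCF1 was at 0.04 ± 0.12 and ABCF2 at 0.19 ± 0.15 (adjusted p = 0.886 and 0.519). ABCF3 had means of 207 ± 37.6, 252 ± 95 and 183 ± 34.5 CPM and ABCE1 of 158 ± 29.5, 165 ± 53.9 and 172 ± 37.9 CPM, and neither passed the test. The interval of the log2 difference of ABCE1 was −0.28 to 0.38 for serum over in vivo and −0.12 to 0.42 for serum-free over in vivo, so that a 2-fold change lay outside both.

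Of 22 genes of translation and ribosome recycling written down, 18 were tested. EIF5B, which joins the ribosomal subunits at initiation, rose with serum from 175 ± 32.4 to 357 ± 57.3 CPM (log2 1.03 ± 0.15, adjusted p = 0.000145), without overlap between the groups. With it, EIF2B2, EIF2S1, EIF6, GSPT1 and NEMF passed the p-value, with log2 increases from 0.58 to 0.91, which makes 6 of 18 beside 14.8% of all genes, and none of the 18 passed it in the lower direction. EIF2S2, EIF5B and EIF6 passed it in the serum-free group, at 0.47, 0.50 and 0.55, and none was called. EIF5 and ETF1, the members with the highest counts, were there at −0.31 ± 0.13 and −0.16 ± 0.11. Between the culture groups none was called either, and EIF2B2, EIF5B and GSPT1 passed the p-value, higher with serum by 0.59, 0.53 and 0.65, whereas EIF5 and EIF2S1 were at 0.40 ± 0.20 and 0.44 ± 0.16 (adjusted p = 0.173 and 0.0575).

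The remaining 28 ABC genes did not reach the count limit in any group as a whole. 13 of them stayed under 15 counts in every embryo, ABCB4, ABCB5, ABCB9, ABCB11 and the second ABCC5 row among them. The other 15 had at least 15 counts in at least 1 embryo. ABCA6, a member of a cluster of A genes, had the largest count, 179 in a serum embryo, and means of 5.84, 10.9 and 3.08 CPM in vivo, with serum and without it. ABCA3, which loads lipid into lamellar bodies, was at 7.68, 2.84 and 12.3 CPM, and ABCG5, which forms a sterol exporter with ABCG8, at 4.48, 0.324 and 7.18 CPM. The anion transporters ABCC2 and ABCC3 were at 6.78, 2.20 and 4.34 CPM and at 2.38, 1.11 and 6.10 CPM. ABCC10 reached 133 counts in a serum embryo. ABCA4, ABCA9, ABCA12, ABCA13, ABCB10, ABCD2, ABCG1 and ABCG4 reached between 16 and 44 counts in their highest embryo. ABCG5 reached 119 counts in vivo and 154 in the serum-free group but at most 8 in the serum group. It was called between the culture groups only when the count limit was lowered to 1 count in any embryo. For all of these genes a difference between the groups as a whole was not tested at the count limit used here. Some of them, ABCA3 and ABCC10 among them, reached the limit in embryos of 1 sex and entered comparisons by sex, where none was called. ABCA3 and ABCC10 were called for male serum over in vivo embryos only when B1 was left out. The superfamily genes TAP1 and TAP2, which carry peptides into the endoplasmic reticulum and fall outside the symbol rule, reached at most 131 and 75 counts and were not tested either.

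The sexes were also compared separately, with 3 to 5 embryos per group. In male embryos 4 of 16 ABC genes tested were called between serum and in vivo, beside 13.3% of all genes. ABCB1 was higher (2.24 ± 0.48, adjusted p = 0.00839) and ABCA1 (−2.84 ± 0.51, adjusted p = 0.00383) and ABCB6 (−2.0 ± 0.35, adjusted p = 0.00363) were among those that were lower. ABCA1 passed the count limit there through the in vivo males alone, with 8 counts in serum embryo B1. In female embryos 0 of 15 were called by the quasi-likelihood test, beside 0.418% of all genes. 4 had an unadjusted p under 0.05, beside 21.1% of all genes, and edgeR's exact test and DESeq2 called 1 each, ABCB1. The quasi-likelihood value of ABCB1 in female embryos was 1.38 ± 0.32 (adjusted p = 0.0836).

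Without serum, ABCB1 (2.04 ± 0.35, adjusted p = 0.0201) and ABCB6 (−1.03 ± 0.14, adjusted p = 0.00489) were called in male embryos, 2 of 17 tested beside 0.966% of all genes. ABCB1 was not called there without A4, nor ABCB6 without A8 or C6, which left 1 call each. ABCA1 passed the p-value there but not the fold limit (−0.97 ± 0.21, adjusted p = 0.0397), and was called without A2 or C4. In female embryos 1 of 16 was called, beside 0.304%, namely ABCB1 (2.27 ± 0.30, adjusted p = 0.0219). That call was lost when any of 5 of the 6 female embryos was left out. A call in male but not in female embryos does not show that the sexes differ, and the difference itself was tested as an interaction. No ABC gene passed that test in either medium, 16 being tested for serum and 18 for serum-free culture, and none of all 8446 and 8425 genes did. Of the ABC genes 1 had an unadjusted interaction p under 0.05 with serum, beside 5.16% of all genes, and 0 had one without serum, beside 6.59%.

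Between male and female embryos of the same group no ABC gene was called, with 0 of 16 in vivo, 0 of 13 with serum and 0 of 18 without it, by the quasi-likelihood test, the exact test and DESeq2. Of all genes 0.653%, 0.173% and 0.139% were called by the first. Unadjusted p-values under 0.05 were found for 2, 2 and 4 of the ABC genes, beside 13.5%, 6.24% and 8.01% of all genes. In the serum-free group ABCB1 was at 157 to 183 CPM in the 5 male and 237 to 303 CPM in the 3 female embryos. These ranges do not overlap, which held for 6.9% of all genes, and the log2 difference of male over female was −0.72 ± 0.17 (adjusted p = 0.184). In the other groups the sexes overlapped in ABCB1. In vivo the 5 male embryos lay at 198 to 231 CPM of ABCB6 and the 3 female ones at 139.6 to 179 CPM without overlap as for 9.83% of all genes (0.39 ± 0.14, adjusted p = 0.232). ABCF3 did not overlap there either (0.47 ± 0.13, adjusted p = 0.125). ABCA5 did not overlap between the sexes without serum (−1.79 ± 0.54, adjusted p = 0.378) or with it (−2.52 ± 0.88, adjusted p = 0.632). ABCA5 passed the count limit through the female embryos alone in both. With serum 2 of 13 did not overlap, beside 6.42% of all genes.

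The serum embryos varied more among themselves than the others. The SD of log2(CPM + 1) over the 8 embryos had a median over the 15 tested ABC genes of 0.33 in vivo, 0.50 with serum and 0.39 without it, and over 7557 genes of 0.37, 0.61 and 0.46. It was larger with serum than in vivo for 12 of the 15, beside 82.9% of the 7557 genes, and larger without serum than in vivo for 10 of the 15, beside 68.6%. ABCB1 went the other way, with 0.94 in vivo, 0.50 with serum and 0.39 without it, and in vivo embryo A3 lay at 9.23 CPM where the next embryo lay at 31.7 CPM. ABCA1 changed most in the direction of the other genes, with 0.25 in vivo, 1.60 with serum and 0.50 without it, followed by ABCB6 with 0.24, 1.31 and 0.31. B2 was the lowest serum embryo for 6 of the 15 genes, and B5 and B8 were each the highest for 4.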

How the data were processed

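RNA of 24 single bovine early blastocysts was sequenced after amplified, unstranded library preparation. Reads were quality-trimmed by the authors and aligned in CLC Genomics Workbench to the UMD 3.1 bovine genome with some imprinted genes added, and the deposited values are raw counts per gene of uniquely placed exon fragments, not normalized. Unique mapping can lower the counts of close paralogs, and antisense or overlapping genes cannot be separated. All 24 value columns were matched to an embryo by name, and group and sex were taken from the labels.

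The quasi-likelihood F test of edgeR 4.0.16 (R 4.3.3) was run after TMM normalization on the counts as deposited, in fits of the groups compared, and p-values were adjusted over all genes tested. Approximate standard errors were derived from the F values, and the 95% intervals from these. Each replicate was 1 embryo. A total of 3253051 to 9000447 counts per embryo gives a floor of 3 counts below 0.0001% of a library, for counting error only. Alternatives were edgeR's exact test, named in the study's methods, DESeq2 1.42.0, other size factors and count limits, sex as covariate, a replicate block and leaving out embryos. Scripts were tested on simulated data.

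The ABC genes, the partner and marker lists and the tests were chosen with earlier results of these data known. Partner genes were named where called, otherwise the 2 of highest mean CPM were named, and those past the p-value alone were added after seeing the values. ABC genes were named where tested or with at least 15 counts in 1 embryo. RefSeq's ARS-UCD2.0 gene table, another build, was used for neighbours and overlaps only. Some genes are counted here but not reported by name. Sequences and transcript lengths were not used here.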

Additional observations from a re-analysis of the deposited data

Results flagged for a closer look

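For each group of 8 embryos, the level of each of the 15 tested ABC genes, the family as a share of all counts, and ABCB1 and ABCB6 as shares of the family were examined, which makes 54 sets of values. In each, the gap between the most extreme embryo and the next was set against the range of the set, with a critical value of 0.526. For independent sets of normally distributed values it would be passed in about 1 in 20, or 2.7 of 54. The sets here share embryos and counts, and their distribution was not tested. That number is therefore not a chance level for them. The critical value was passed in 5 sets. In each case a single embryo was far above the rest. In the serum group, B5 had 319 CPM of ABCB1 against 202 CPM in the next embryo (gap over range 0.567) and 288 CPM of ABCE1 against 187 CPM (0.598). B5 also had the largest total count of all embryos, and whether the depth bears on these levels was not tested. B1 had 30.8 CPM of ABCD4 against 12.7 CPM (0.725). In the serum-free group, C10 had 81.0 CPM of ABCA1 against 44.6 CPM (0.691), and C2 had 64.2 CPM of ABCG2 against 30.2 CPM (0.599).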

How the results depend on the processing

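Without the fold limit 7 ABC genes passed for serum over in vivo, against 4, beside 28.3% of 7339 genes. For serum-free over in vivo 2 passed, against 1, beside 5.82% of 7314 genes. The other alternatives gave 3 to 5 and 1. For these and for the alternatives below, the share over all genes is not given, so their counts are not read against it. The single call of serum over serum-free, ABCB8, became 0 with total counts only as library sizes, in 1 fit over all 24 embryos, without B2 and B5, and, in the embryos with shared numbers, with or without a replicate block. At 1 count in any embryo the count stayed at 1, but the gene was ABCG5. Leaving out each embryo gave 4 to 4, 1 to 2 and 0 to 2 calls in the 3 comparisons, ABCB6 being added for serum-free over in vivo without C3 or C7. In male embryos it gave 4 to 7 calls with serum, 7 without B1, and 1 to 3 without serum, 1 without A4, A8 or C6. In female embryos it gave 0 to 1 with serum, 1 without B2, and 0 to 1 without serum. The exact test and DESeq2 gave 1 call each in female and 6 each in male serum embryos. The replicate numbers pair nothing, since 0 of 7 shared numbers correlated above 0.1 in each comparison (−0.123 to 0.083, −0.109 to 0.065 and −0.111 to 0.031), and the replicate block left 4, 1 and 0 calls and gave ABCF1 for serum over in vivo an adjusted p of 0.128. The alternative without B2 and B5 and the unblocked fit were chosen after seeing the data. Reversals were confined to genes near 0 that did not pass the test. ABCE1 for serum over in vivo, 0.05, became −0.00148 with at least 15 counts in both groups, −0.082 with the block, −0.10 unblocked, −0.047 without B2 and B5, and −0.059 to 0.14 leaving out each embryo, and for serum over serum-free it ran from −0.22 to 0.0072. For serum-free over in vivo, leaving out each embryo turned ABCA5 (−0.42 to 0.012), ABCC1 (−0.16 to 0.18) and ABCD3 (−0.063 to 0.044). In the comparisons of all embryos, ABCB1 stayed at 1.65 to 1.956 and 1.99 to 2.35 against in vivo embryos and passed in each alternative, whereas within the sexes it was not called in some of them. The cause of these changes was not tested. Genes under the count limit, 28 of 43, cannot be judged in the comparisons of all embryos at this depth.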
